A study of Cicer arietinum with 8 samples.

Results

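Roots of chickpea seedlings left to dry out and roots of seedlings chilled in water were compared directly with each other, without the unstressed root as a reference. The seedlings (Cicer arietinum, genotype ICC4958) were 10 days old and each treatment lasted 5 h. For desiccation the seedlings were laid on tissue paper, for cold they were held in water at 4 ± 1 °C, for salinity they were put into 150 mM NaCl, and controls were kept in water. Messenger RNA libraries were made from root and from shoot in each of these conditions, 8 libraries in all and 1 for each organ and treatment. No group has a replicate, and the labels do not say how many plants entered a library. The values are FPKM, fragment counts scaled by exon length and by the mapped fragments of the library. The comparison takes the 15863 annotated gene models, of 27248 in the files, that reached 1 FPKM in desiccated or in cold root. A gene model is called 2-fold apart when log2(FPKM + 1) differs by at least 1, and every log2 difference below is desiccated minus cold on this scale unless another is named. The scale understates the differences of weakly expressed genes.

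Desiccation and cold are both known to disturb the water balance of a root. Drying lowers the water potential around the root and raises the hormone abscisic acid, which controls a large share of the dehydration response of plants. Cold stiffens membranes and slows water uptake and metabolism, and it acts in part through a separate set of transcription factors, the CBF or DREB1 family, which bind some of the same promoter elements as dehydration factors. This is general plant biology. The gene identifiers of the files have no gene name here (0 of them were found in the RefSeq gene table of chickpea), so no function is given for any gene model and only a few identifiers are named in each comparison.

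Of the 15863 gene models 500 (3.15%) were 2-fold apart, 305 (1.92%) of them higher in desiccated root and 195 (1.23%) higher in cold root. The interquartile range of the difference ran from -0.16 to 0.27 and its median was 0.05. By the same measure 18.2% of gene models were 2-fold apart between desiccated and cold shoot, and 26.8% and 25.5% between salt-stressed root and the desiccated and the cold root. In shoot the share was 2.69% between control and cold, lower than for the root pair, and 7.08% between salinity and desiccation. Between the root control and desiccated root the share was 16.4%, and between the root control and cold root it was 16.4%. The root pair was chosen as the closest of the stressed roots, so its closeness beside the salt-stressed root is no finding. Large differences were few. At least 4-fold apart were 31 gene models higher in desiccated root and 14 higher in cold root, and at least 8-fold apart were 4 and 2. With 1 library on each side these numbers cannot be set against biological spread, and no p-value was computed. In whole organs, fewer cells of a type and less RNA per cell cannot be told apart.

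**Figure D1:**
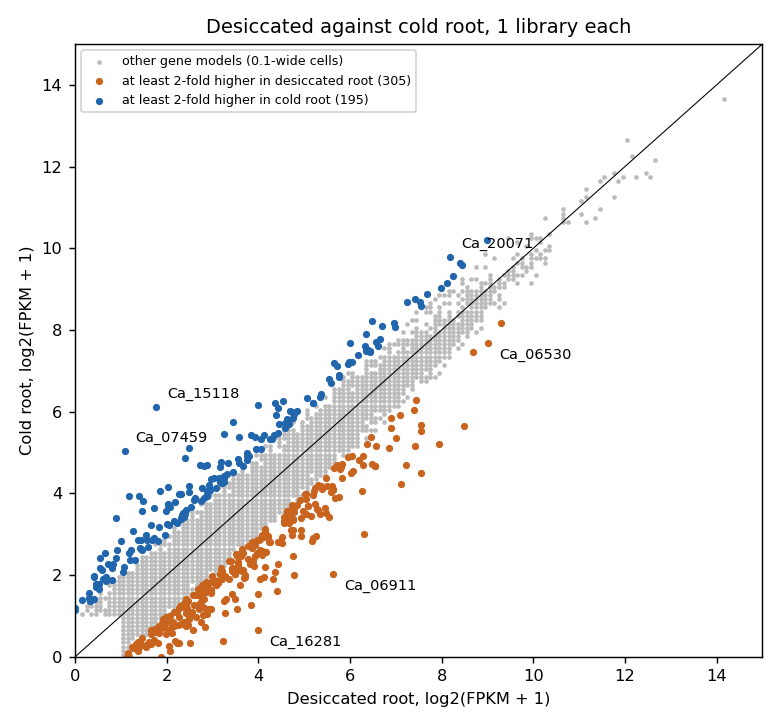
Each axis gives log2(FPKM + 1) in 1 library, desiccated root across and cold root up, for gene models with at least 1 FPKM in either. Orange points are the 305 gene models at least 2-fold higher in desiccated root, blue points the 195 at least 2-fold higher in cold root, and most gene models (grey) lie along the diagonal.

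Shoot RNA, and sequencing depth as far as it could be read, were alike in the pair. A set of 23 gene models reaching 100 FPKM in every shoot library and under 1 FPKM in unstressed and salt-stressed root summed to 7.16 FPKM in desiccated root and 7.3 FPKM in cold root, against 13131 to 21972 FPKM in the shoot libraries. Conversely, 10 of 10 gene models that reached 100 FPKM in unstressed and salt-stressed root and under 1 FPKM in every shoot library were expressed at 1 FPKM or more in both roots. Relative to the root control, sequencing depth was 1.21 in desiccated and 1.27 in cold root, read indirectly from the most common ratio among values under 0.3 FPKM. That ratio was held by 82 of 813 rows (10.1%) for desiccated root and 74 of 856 (8.64%) for cold root. The FPKM of annotated gene models summed to 695334 in desiccated and 654362 in cold root, and scaling these sums to the same value left 263 gene models higher in desiccated and 241 higher in cold root.

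The gene models that separated the pair spanned all levels of expression, but the direction changed with level. Among the 1437 gene models averaging under 2 FPKM in the pair, 51 were higher in desiccated and 21 higher in cold root, and among the 2408 averaging 2 to 5 FPKM the numbers were 76 and 27. Among the 1275 with a mean of at least 100 FPKM the order turned, with 11 higher in desiccated and 31 higher in cold root. The median difference of those 1275 gene models was 0.13, so the bulk of abundant gene models leaned slightly towards desiccated root while most of the widely separated ones were higher in cold root. The excess in cold root at high level was 31 against 10 with median-of-ratios scaling, 35 against 10 with equal annotated sums and 50 against 14 with quantile normalization. The excess in desiccated root under 5 FPKM also held under these scalings, whereas between 5 and 100 FPKM it did not always: with equal annotated sums 42 against 45 gene models were higher in desiccated and cold root at 5 to 10 FPKM, 41 against 42 at 20 to 50 FPKM and 13 against 16 at 50 to 100 FPKM, and with quantile normalization 14 against 15 at 50 to 100 FPKM. The 305 gene models higher in desiccated root had a median of 10.7 FPKM there and 3.08 FPKM in cold root. The 195 higher in cold root had a median of 18.5 FPKM there and 6.53 FPKM in desiccated root.

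**Figure D2:**
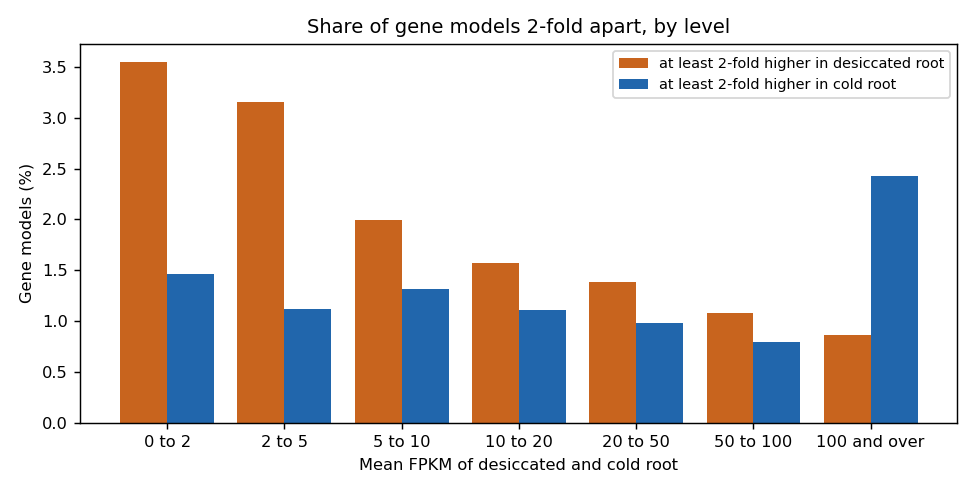
Bars give the percentage of gene models at least 2-fold higher in desiccated root (orange) or in cold root (blue), within classes of the mean FPKM of the pair. Gene models higher in desiccated root prevail in every class under 100 FPKM (51 against 21 in the lowest), though between 5 and 100 FPKM not under every scaling, and those higher in cold root prevail at 100 FPKM and over (31 against 11).

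Few gene models went from 0 or under 1 FPKM in one root to a high level in the other. Under 1 FPKM in the lower library were 70 of the 305 higher in desiccated root and 29 of the 195 higher in cold root. Over all 15863 gene models 97.7% reached 1 FPKM in cold root and 98.4% in desiccated root. In the lower library 5 of those higher in desiccated root were listed at 0, reaching at most 2.69 FPKM in desiccated root, and 2 of those higher in cold root were listed at 0, reaching at most 1.3 FPKM. Only 1 gene model, Ca_16281, was under 1 FPKM in one root and at 10 FPKM or more in the other. Most differences lay near the threshold: the median absolute log2 difference was 1.30 among those higher in desiccated root and 1.23 among those higher in cold root. Just inside the threshold, at absolute differences of 1 to 1.1, lay 69 gene models higher in desiccated and 46 higher in cold root. Just outside it, at 0.9 to 1, lay 89 and 68.

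The widest differences in favour of desiccated root were those of Ca_06911 and Ca_16281. Ca_06911 stood at 0.535 FPKM in the root control, 48.6 FPKM in desiccated, 16.2 FPKM in salt-stressed and 3.08 FPKM in cold root, a difference of 3.60. In shoot the same gene model stood at 59.95 FPKM in the control, 1527 FPKM under desiccation, 509 FPKM under salinity and 143 FPKM under cold. Its order of treatments was the same in both organs, with desiccation highest, then salinity, cold and control. Ca_16281 stood at 0.098 FPKM in the root control, 15 FPKM in desiccated, 19.6 FPKM in salt-stressed and 0.574 FPKM in cold root, a difference of 3.35. Its shoot values were 25.7 FPKM in the control, 1744 FPKM under desiccation, 696 FPKM under salinity and 137 FPKM under cold. Cold root and root control were both under 1 FPKM for this gene model, too low to compare them closely. Cold shoot lay above its own control.

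In favour of cold root, Ca_15118 and Ca_07459 differed most. Ca_15118 stood at 1.31 FPKM in the root control, 2.41 FPKM in desiccated, 9.19 FPKM in salt-stressed and 68 FPKM in cold root, a difference of -4.34. In shoot it stood at 1.35 FPKM in the control, 0.409 FPKM under desiccation, 1.76 FPKM under salinity and 6.4 FPKM under cold. Cold was the highest library in both organs, and desiccated root stayed close to the control. Ca_07459 stood at 1.5 FPKM in the root control, 1.11 FPKM in desiccated, 0.31 FPKM in salt-stressed and 31.7 FPKM in cold root, a difference of -3.95. It did not reach 1 FPKM in any shoot library, where it was highest under cold at 0.716 FPKM. Its high level was therefore seen in cold root alone of the 8 libraries.

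Among abundant gene models, with at least 100 FPKM in both roots, 18 of 1097 (1.64%) were 2-fold apart, 3 higher in desiccated and 15 higher in cold root. Ca_20071 stood at 84 FPKM in the root control, 290.4 FPKM in desiccated, 159 FPKM in salt-stressed and 878 FPKM in cold root, a difference of -1.59. Ca_09648 stood at 10.9, 151, 45.2 and 408 FPKM in the same order, a difference of -1.43. Both gene models stood above the control in every stressed root and highest in cold root. On the other side, Ca_06530 stood at 117 FPKM in the root control, 515 FPKM in desiccated, 198 FPKM in salt-stressed and 205 FPKM in cold root, a difference of 1.33. Ca_19085 stood at 314, 410.2, 1517 and 176 FPKM in the same order, a difference of 1.21. Among the roots, cold was the lowest for Ca_19085 and salt-stressed root the highest, whereas desiccated root stood apart from the other 3 roots for Ca_06530.

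**Figure D3:**
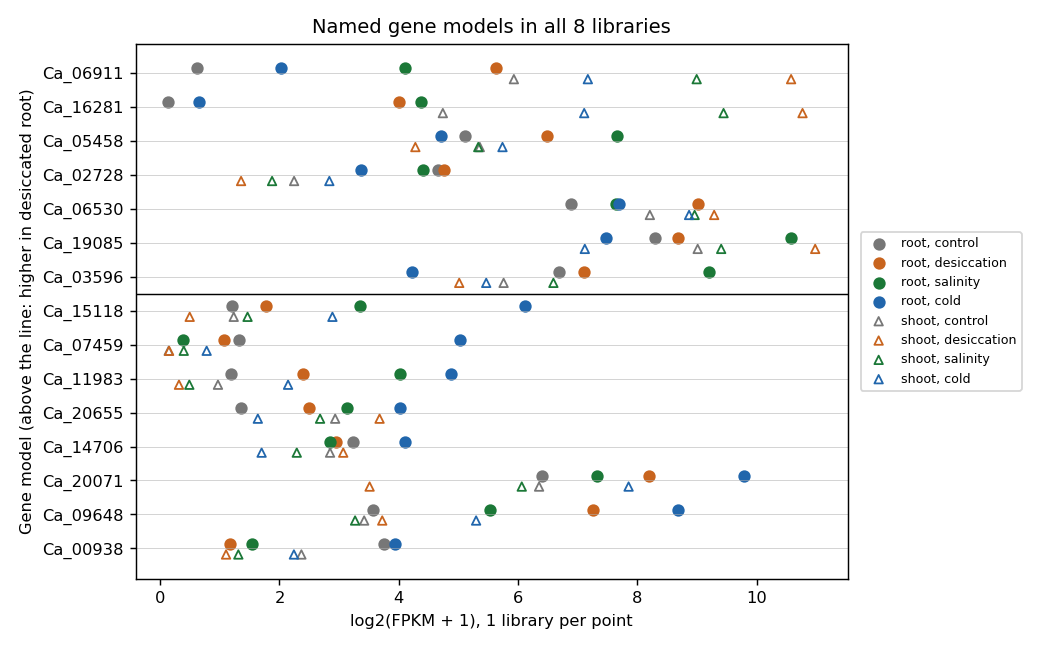
Points give log2(FPKM + 1) of the named gene models in each library, filled circles for root and open triangles for shoot, coloured by treatment, with 1 library per point. Above the line are gene models higher in desiccated than in cold root, such as Ca_06911 (48.6 and 3.08 FPKM), and below it those higher in cold root, such as Ca_15118 (2.41 and 68 FPKM).

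The root control and salt-stressed root were not used to choose the gene models, so their place beside the pair was examined next. Over all 15863 gene models the control was nearer to desiccated than to cold root in 52.7%. Among the 305 higher in desiccated root it was nearer to desiccated root in 100 (32.8%). Of the 305 gene models higher in desiccated root, the control lay within 2-fold of cold root only in 129 (42.3%), and their medians were 1.89 FPKM in the control, 2.77 FPKM in cold and 9.24 FPKM in desiccated root. In 60 (19.7%) the control lay within 2-fold of desiccated root only, with medians of 15 FPKM in the control, 13.6 FPKM in desiccated and 4.75 FPKM in cold root. By the way the classes are defined, desiccated root stands high in the first and cold root stands low in the second. In 36 the control was more than 2-fold below both roots, with a median of 0.542 FPKM against 23.5 and 6.37 FPKM in desiccated and cold root. In 22 it was more than 2-fold above both, with a median of 36.3 FPKM against 6.98 and 2.17 FPKM. In these classes both stressed roots lay on the same side of the control by different amounts. In a further 56 the control was within 2-fold of both roots, and in 2 it lay between them and apart from both.

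The 195 gene models higher in cold root were spread more evenly over these classes. The control was nearer to desiccated root in 115 of them and nearer to cold root in 80 (41%). Over all gene models it was nearer to desiccated root in 52.7%. In 46 (23.6%) the control lay within 2-fold of desiccated root only, with medians of 6.62 FPKM in the control, 7.96 FPKM in desiccated and 27.1 FPKM in cold root. In 48 (24.6%) it lay within 2-fold of cold root only, with medians of 12.3 FPKM in the control, 12.7 FPKM in cold and 3.05 FPKM in desiccated root. In the latter class the cold root looked like unstressed root and the desiccated root stood low. In 45 the control was more than 2-fold below both, with a median of 7.63 FPKM against 35.4 FPKM in desiccated and 72.6 FPKM in cold root. In 52 it was within 2-fold of both, and in 4 it was more than 2-fold above both.

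The widest example of each class in which one root of the pair stood below both its partner and the control was picked after the values were seen. Ca_03596 stood at 102 FPKM in the root control, 137 FPKM in desiccated, 591 FPKM in salt-stressed and 17.6 FPKM in cold root, a difference of 2.89. Cold root was thus the only root library below the control. Ca_00938 stood at 12.5 FPKM in the root control, 1.25 FPKM in desiccated, 1.91 FPKM in salt-stressed and 14.4 FPKM in cold root, a difference of -2.77. Desiccated and salt-stressed root were both low for this gene model, and in shoot it stood at 4.16 FPKM in the control, 1.15 FPKM under desiccation, 1.48 FPKM under salinity and 3.73 FPKM under cold.

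Salt-stressed root lay on the side of desiccated root for most gene models higher there. It was nearer to desiccated than to cold root for 223 of the 305 (73.1%), against 46.6% of all 15863 gene models. It was more than 2-fold above both roots for 119 of them, and the median over the 305 was 15.6 FPKM in salt-stressed root beside 10.7 FPKM in desiccated root. Of the 195 gene models higher in cold root, salt-stressed root was nearer to desiccated root for 125 and nearer to cold root for 70 (35.9%). It was more than 2-fold below both for 34 and within 2-fold of desiccated root only for 66. Among the 45 gene models whose control lay below both roots, salt-stressed root was nearer to desiccated root in 38, with a median of 15.2 FPKM.

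**Figure D4:**
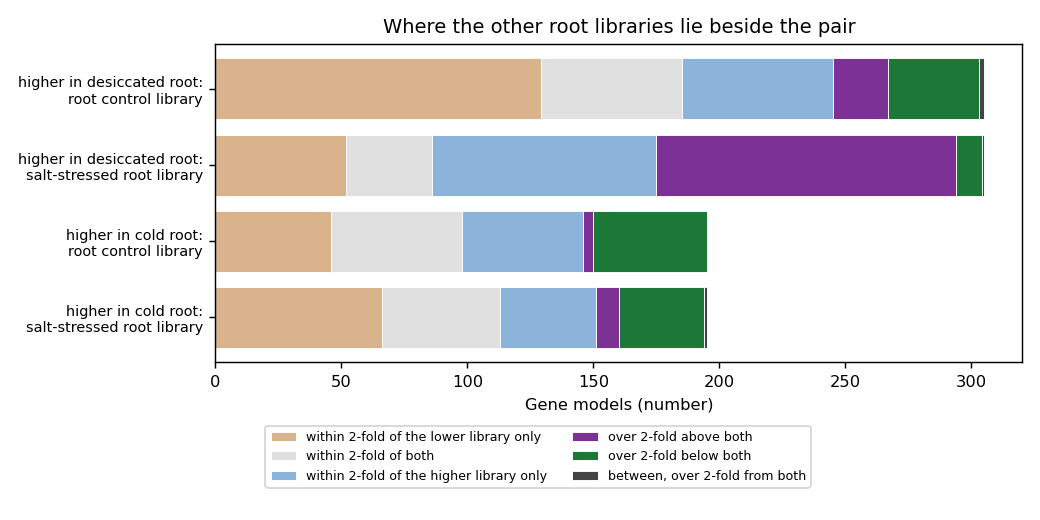
Bars count the gene models 2-fold apart between desiccated and cold root by where the root control or salt-stressed root lies beside the pair on log2(FPKM + 1). The control is within 2-fold of cold root only for 129 of the 305 gene models higher in desiccated root, and salt-stressed root is more than 2-fold above both for 119.

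Desiccated and cold shoot, which share no library with the root pair, gave the same contrast of treatments in the other organ. These shoots stood unequally far from their control: 19.3% of gene models were 2-fold apart for desiccation and 2.69% for cold. In root both shares were 16.4%. Over the 14876 gene models considered in both organs 8.04% were 2-fold higher in desiccated shoot and 9.44% in cold shoot. Of the 305 gene models higher in desiccated root 209 could be considered in shoot, where 74 (35.4%) were 2-fold higher under desiccation and 19 (9.09%) under cold, with a median difference of 0.64 against -0.01 over all. Of the 195 higher in cold root 182 could be considered in shoot, where 51 (28%) were 2-fold higher under cold and 10 (5.49%) under desiccation, with a median difference of -0.27. The 125 gene models apart in the same direction were 25% of the 500 in root and 4.28% of the 2920 in shoot. Across all 14876 gene models, which are not independent replicates, the root and shoot differences were close to unrelated (Pearson's r 0.0596, Spearman's rho -0.0405). The labels do not say whether root and shoot came from the same plants.

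**Figure D5:**
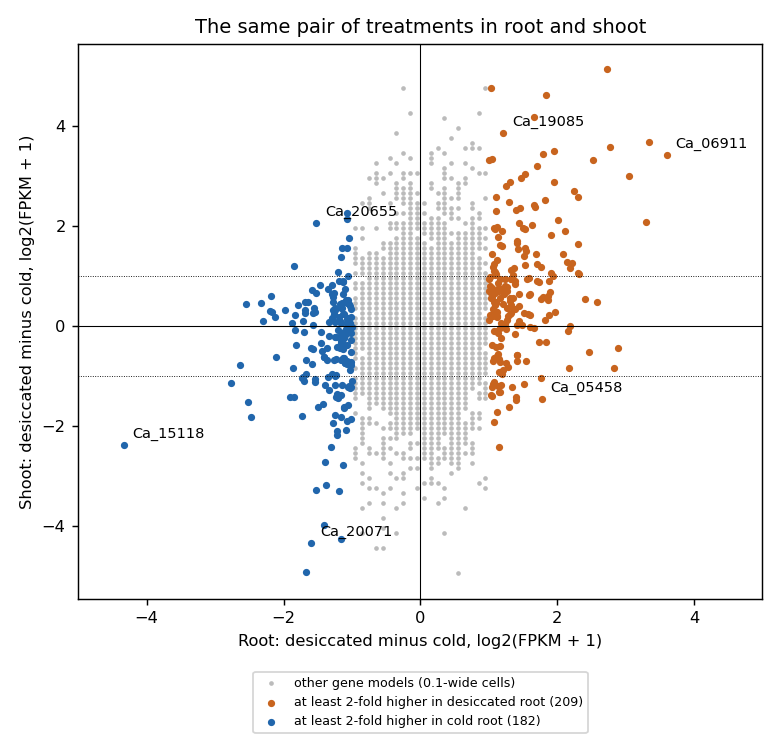
Points give the desiccated minus cold difference of log2(FPKM + 1) in root (across) and shoot (up), with 209 orange gene models higher in desiccated root and 182 blue ones higher in cold root, and the rest in grey. Dotted lines mark 2-fold in shoot, which 74 orange points pass upwards and 19 downwards, and 51 blue points pass downwards and 10 upwards.

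The shoot values were also counted within each control class. Over all 14876 gene models considered in both organs, 8.04% were 2-fold higher in desiccated shoot and 9.44% in cold shoot, to be read beside each count. Of gene models higher in cold root whose control lay below both roots, 21 of 42 considered in shoot were 2-fold higher in cold shoot and 4 in desiccated shoot, with a median shoot difference of -1.01. Where the control lay within 2-fold of cold root only, 6 of 46 were 2-fold higher in cold shoot and 2 in desiccated shoot. The other 38 were within 2-fold, and the median shoot difference was 0.17. Where the control lay within 2-fold of desiccated root only, the numbers in the same order were 13, 2 and 25 of 40. Where the control was within 2-fold of both roots they were 8, 2 and 40 of 50. Among the gene models higher in desiccated root, 31 of 82 were 2-fold higher in desiccated shoot where the control lay close to cold root, 15 of 47 where it lay close to desiccated root, 9 of 41 where it lay within 2-fold of both, 10 of 19 where it lay above both and 7 of 18 where it lay below both. No test of these differences between classes was run.

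Besides Ca_06911 and Ca_15118, described above, the widest differences shared by the organs, ranked by the smaller of the root and shoot differences among gene models whose single identifier stands on 1 row, were those of Ca_16281, at 3.35 in root and 3.66 in shoot, and of Ca_11983, at -2.48 and -1.83. Ca_11983 stood at 1.29 FPKM in the root control, 4.27 FPKM in desiccated, 15.2 FPKM in salt-stressed and 28.4 FPKM in cold root. Its shoot values were 0.957 FPKM in the control, 0.244 FPKM under desiccation, 0.403 FPKM under salinity and 3.42 FPKM under cold. Cold was highest in both organs, and salinity stood above the control in root. In shoot the control and salinity were both under 1 FPKM, too low to compare them closely. Shoot differences exceeded those in root for some abundant gene models. Over the gene models considered in each organ the median absolute difference was also larger in shoot, at 0.47 against 0.22. Ca_20071 stood at 80.7 FPKM in the shoot control, 10.4 FPKM in desiccated and 230.2 FPKM in cold shoot. Its difference was -4.35 in shoot against -1.59 in root, with desiccation above the control in root and below it in shoot. Ca_19085 stood at 2020.4 FPKM in desiccated and 138 FPKM in cold shoot, a difference of 3.86 against 1.21 in root. Ca_09648 was at -1.57 in shoot and -1.43 in root, whereas Ca_06530 was smaller in shoot, at 0.42 against 1.33.

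Gene models higher in desiccated root were often below 1 FPKM throughout the shoot. Under 1 FPKM in all 4 shoot libraries were 89 of the 305 (29.2%), against 11 of the 195 higher in cold root (5.64%) and 845 of all 15863 (5.33%). Weakly expressed gene models more easily fall under this mark, so the shares were also taken at higher root levels. With at least 20 FPKM in the higher root library they were 17 of 105 (16.2%), 3 of 92 (3.26%) and 178 of 6539 (2.72%). The part of expression level in this was not tested further.

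An additive model over all 8 libraries, with organ and treatment as terms, asked which loci differed between desiccation and cold by a like amount in both organs. With limma, 0 of 21907 loci (0%), those averaging 1 FPKM or more, passed an adjusted p of 0.05, and 451 (2.06%) had an unadjusted p under 0.05. The smallest adjusted p belonged to Ca_06911, whose mean log2 difference was 3.50 (SE 0.29, limma adjusted p = 0.262), higher under desiccation in both organs. Ca_15118 had a mean log2 difference of -3.36 (SE 0.72, limma adjusted p = 1), higher under cold in both organs. The model has 3 residual degrees of freedom, and departures of root from shoot count as its error.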

How the data were processed

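The authors deposited 1 FPKM table per library. Per the series' design text, reads were filtered with NGS QC Toolkit, mapped to the annotated chickpea genome with TopHat and quantified with Cufflinks. Versions and genome build: not given in the sources used here. Each value is relative to the library total, so a few abundant transcripts lower all other values of a library, and an exact 0 can be a failed estimate. Each table has 34193 rows, of which 27248 carry annotated gene identifiers; the rest were outside the comparison. Several identifiers on 1 row, or 1 identifier on several rows, could split or merge reads and affected 23 of the 500 gene models 2-fold apart; none of these is named.

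Groups came from sample titles. Values were compared as log2(FPKM + 1) by size alone, and organs together with limma 3.58.1 in R 4.3.3 (empirical Bayes with a trend, Benjamini-Hochberg adjustment). Whole reads were not recovered from the FPKM, total depth is unknown, and no count test was run. P-values rest only on departures of these libraries from the additive model, and not on a spread between replicates. Tables were made in Python 3.11.15 (pandas 2.3.3, numpy 2.4.6, scipy 1.17.1; figures: matplotlib 3.10.9), and the steps were tested on simulated data. Alternatives were other pseudocounts, minimum levels, scalings, thresholds and sets of libraries.

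The gene models compared and the lists were chosen with earlier results of these data known. Named were gene models with a single identifier that stands on 1 row only. They were those with the widest difference each way among those with at least 10 FPKM in the higher library and 2-fold apart under every scaling; among those apart in both organs in the same or in opposite directions, ranked by the smaller of the absolute root and shoot differences; and among those with at least 100 FPKM in both roots. Any past the limma threshold would also have been named.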

Additional observations from a re-analysis of the deposited data

Results flagged for a closer look

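Desiccation and cold separated 29 gene models at least 2-fold in opposite directions in root and shoot, 5.8% of the 500 apart in root. Of these, 19 were higher in desiccated root and in cold shoot, and 10 were higher in cold root and in desiccated shoot. These are 9.09% of the 209 and 5.49% of the 182 considered in shoot, where 9.44% of all gene models were 2-fold higher in cold shoot and 8.04% in desiccated shoot, so their number is no larger than the share over all gene models gives. Each rests on 1 library per organ and treatment, so the difference between the organs was not tested.

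Ca_05458 was higher in desiccated root (88.5 FPKM) than in cold root (25.2 FPKM), whereas desiccated shoot was at 18.4 FPKM and cold shoot at 52.4 FPKM, a log2 difference of -1.46. Its root control was at 33.7 FPKM and its shoot control at 40.02 FPKM, so desiccation stood above the control in root and below it in shoot. Ca_02728 stood at 26.1 FPKM in desiccated and 9.27 FPKM in cold root, and at 1.56 and 6.14 FPKM in the shoots, a shoot difference of -1.48.

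Ca_20655 was higher in cold root (15.3 FPKM) than in desiccated root (4.64 FPKM), while desiccated shoot was at 11.8 FPKM and cold shoot at 2.11 FPKM, a log2 difference of 2.05. Its controls were at 1.56 FPKM in root and 6.64 FPKM in shoot, so cold stood above the control in root and below it in shoot. Ca_14706 stood at 16.3 FPKM in cold and 6.75 FPKM in desiccated root, and at 2.25 and 7.39 FPKM in the shoots, a shoot difference of 1.37.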

How the results depend on the processing

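The 500 gene models apart in root (305 higher in desiccated, 195 in cold), the 125 also apart in shoot in the same direction and the 29 in the opposite one stayed within 1.5 times under every scaling, with a minimum of 5 FPKM or none, and with single identifiers alone. In that order they were 875 (535 and 340), 205 and 92 with a pseudocount of 0.1, 200 (111 and 89), 58 and 7 with a pseudocount of 5, and 45 (31 and 14), 11 and 0 with a 4-fold threshold, which construction alone moves. With unannotated rows included, added after the data were seen like the settings of the next sentences, they were 1620 (792 and 828), 277 and 172. The control lay within 2-fold of the higher library only for 126 gene models higher in desiccated and 90 higher in cold root with a pseudocount of 0.1, and for 20 and 17 with a pseudocount of 5. It lay within 2-fold of the lower library only for 80 higher in cold root with 0.1, and for 54 and 29 with 5. Quantile normalization gave 50 gene models of at least 100 FPKM higher in cold root, and the cause was not tested. The limma count of 0 became 4 without the filter, at gene models of at most 0.138 FPKM listed at 0 in 6 of 8 libraries. The 15 named gene models kept their direction in 75 of 75 values under other pseudocounts and scalings, and Ca_14706 alone came under 2-fold (-0.86 with a pseudocount of 5). Of these values 5 moved by 1 or more: Ca_16281 to 4.49 with a pseudocount of 0.1, and with a pseudocount of 5 Ca_16281 to 1.84, below Ca_03596 at 2.65, Ca_07459 to -2.58, Ca_15118 to -3.30 and Ca_00938 to -1.63. With a pseudocount of 5, Ca_06911 (2.73) was no longer the widest in favour of desiccated root either. No paired analysis was possible because each group has 1 library, beyond the pairing of treatments within an organ that the additive model already holds. Values near 1 FPKM rest on few fragments: the 95th percentile of the absolute difference was 1.00 under 2 FPKM and 0.73 at 50 to 100 FPKM.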

Other observations

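Rows that carry only a locus number, with no annotated gene model, separated the roots more often. Of 5386 such rows with at least 1 FPKM in either root, 1120 (20.8%) were 2-fold apart, 487 higher in desiccated and 633 higher in cold root. Their median absolute log2 difference was 0.44, against 0.22 for annotated gene models. These rows made up 51.2% of the summed FPKM in desiccated root and 52.2% in cold root. Between unstressed and cold shoot 12% of such rows were 2-fold apart, against 2.69% of gene models.

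The 10 most abundant gene models held 8.79% of the annotated FPKM in desiccated root and 7.55% in cold root, against 12.5% in the root control and 6.74% in salt-stressed root.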
